A study of Mus musculus with 8 samples.

Results

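Bipolar cell genes were examined in whole retinas taken from mouse pups on postnatal day 8 (P8), from a list of 30 genes. Of these, 28 were among the 18193 genes that had a probe set naming 1 gene. The members were the probe sets whose annotation gave exactly 1 gene symbol, that symbol being on the list of known bipolar cell genes. A probe set is a group of short array probes against the same transcript. This gave 50 probe sets for 28 genes, 1 each for 13 genes and 2 to 4 for the other 15, and every probe set was kept. Bhlhe22 and Lrit3 had no such probe set here and were not analysed. No filter on low values was applied, so all 50 entered the test.

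The study compared 4 Control and 4 Z/Edn2 arrays. Z/Edn2 is a Cre-dependent transgene for Edn2, the gene of the secreted peptide endothelin 2, and the Six3-Cre transgene switches it on in the retina as it develops. Z/Edn2 mothers were crossed to fathers with 2 copies of Six3-Cre, so both groups carried Six3-Cre: the Control pups were Six3-Cre without the transgene and the Z/Edn2 pups were Z/Edn2; Six3-Cre. The mice had a mixed background, mainly C57BL/6 and 129, pups were assigned by LacZ activity in tail clips, and each array held the pooled retinas of 2 to 3 pups. All values are log2 signal per probe set, and all differences are Z/Edn2 minus Control.

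Bipolar cells carry the visual signal from photoreceptors to the inner retina. ON bipolar cells respond to light through a G protein cascade that starts at a metabotropic glutamate receptor and ends at the cation channel Trpm1, while OFF bipolar cells use ionotropic glutamate receptors of the AMPA and kainate kind. Transcription factors divide the population into rod bipolar cells and several cone bipolar types, and in the mouse these cells are still maturing around eye opening. Because the tissue was whole retina, fewer bipolar cells and less RNA per cell cannot be told apart in these values. Otx2, a factor of photoreceptors and bipolar cells, lay between 11.80 and 12.57 in the 8 arrays, above 99.6% of probe sets by its mean.

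Some arrays stood apart. Z/Edn2 3 had the highest median, 6.60 against 6.48 to 6.52, and a 5′ bioD spike-in signal of 9.30 against 11.32 to 11.61, while another bioD 5′ control lay at 10.22 against 10.24 to 10.46. Its signal for Xist, which is transcribed from the silenced X in females, was 6.57 in the brightest of 3 probe sets, against 10.16 to 12.35 in the other arrays. In another Xist probe set it was 4.59 against 8.33 to 11.40, and in the last 5.53, where Control 1 was lower at 5.27. The labels give no sex for the pups. Without Z/Edn2 3, 0 bipolar probe sets passed by limma and 1 had an unadjusted p under 0.05. In Control 1 and Z/Edn2 1 the actin signal at the 3′ end exceeded that at the 5′ end by 0.65 and 0.56, against 1.06 to 1.42 in the other arrays. The single Edn2 probe set had a difference of 0.18 ± 0.0975 (SE, limma adjusted p = 1.00), and whether it lies in the transgene's transcript is not given in the sources used here, so it did not check the labels. Of all 34945 probe sets with 1 symbol, 31 were called higher and 9 lower by limma (Benjamini-Hochberg adjusted p below 0.05).

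No bipolar probe set passed the threshold between Z/Edn2 and Control retina in any of the role groups. By limma 0 of the 50 probe sets passed the adjusted threshold, where 0.114% of all probe sets did (0.0887% higher and 0.0258% lower), and 0 had an unadjusted p under 0.05, where 4.03% of all probe sets did (2.84% higher and 1.2% lower). With the replicate number as a block 0 passed as well, where 0.269% of all did (0.217% higher and 0.0515% lower), and 9 had an unadjusted p under 0.05, where 8.54% of all probe sets did. Of these 9, 7 were lower in Z/Edn2 (a probe set each of Isl1, Gng13, Rgs7, Pcp2, Prkca, Kcng4 and Lrtm1), where 2.91% of all probe sets were. The other 2, of Vsx1 and Rgs11, were higher, where 5.63% of all were. In 0 of 50 were the 4 Z/Edn2 values all on one side of the 4 Control values, which held for 3.13% of all probe sets (2.32% with Z/Edn2 above and 0.813% below). The differences ran from −0.43 (Pcp2, probe set 1424944_at) to 0.39 (Rgs11), with 21 above 0, 29 below 0 and a median of −0.053, beside a median of 0.018 over all probe sets.

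The 95% intervals depended on whether the shared replicate numbers were in the fit. Without them, for 27 of the 50 probe sets the interval of the difference lay within 0.5 log2 units of 0, and for 45 within 1 log2 unit, which is a 2-fold change. The 5 wider ones were those of Gng13 1419414_at, which reached down to −1.01, Pcp2 1424944_at to −1.34, Lrtm1 1443866_at to −1.24, and upward Grik1 1439987_at to 1.38 and Slc17a7 to 1.26. With the replicate block, the intervals of 43 probe sets lay within 0.5 log2 units of 0 and those of all 50 within 1 log2 unit, with outermost bounds of −0.63 (Pcp2 1424944_at) and 0.65 (Rgs11). Taken one at a time, the blocked intervals thus left out a 2-fold change, while 5 of those without the block did not.

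**Figure D1:**
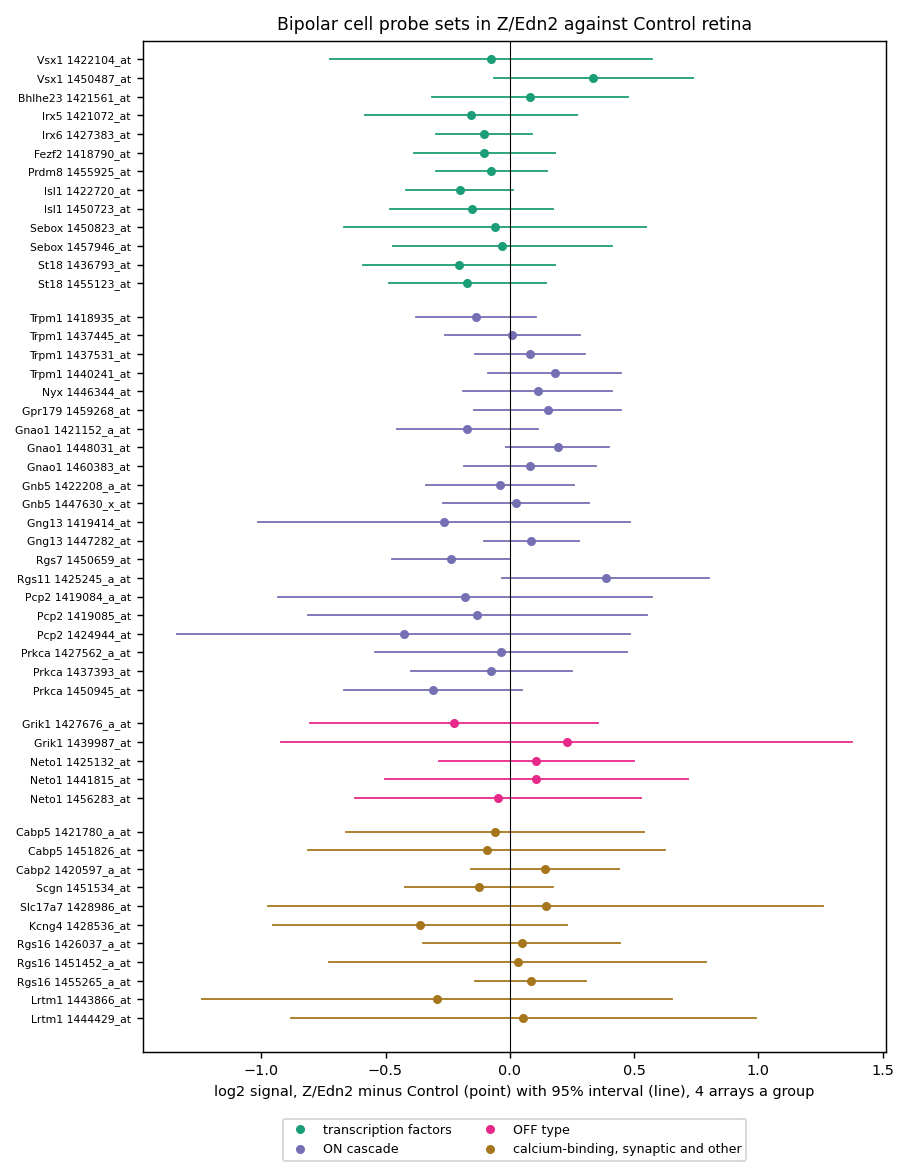
Difference in log2 signal, Z/Edn2 minus Control, for each of the 50 bipolar probe sets (x axis), 4 arrays a group. Points are differences, lines are 95% intervals from limma without the replicate block, and colours give the role group. Every interval crosses 0, and the points lie between −0.43 and 0.39.

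Among the transcription factors, 13 probe sets of 9 genes were measured, with 2 differences above 0, 11 below 0 and a median of −0.10. Isl1, a LIM homeodomain factor of ON bipolar cells that ganglion cells and some amacrine cells also use, had the smallest p of the group. Its probe set 1422720_at read 11.48, 11.37, 11.37 and 11.26 in Control 1 to 4 and 11.26, 11.31, 10.98 and 11.13 in Z/Edn2 1 to 4. Z/Edn2 3 and 4 lay below every Control array, Z/Edn2 1 and 2 lay within the Control range, and each was below the Control array of the same number. The difference of −0.20 ± 0.0963 (SE) did not pass (limma adjusted p = 1.00), and the other Isl1 probe set was at −0.15. In ganglion cell markers 0 of 13 probe sets passed (smallest limma adjusted p = 0.206), and all 13, of 7 measured genes, were below 0, as were 43.7% of all probe sets. Their median was −0.38, and their mean log2 signal was 8.61 to 8.79 in Control and 8.18 to 8.47 in Z/Edn2. The part of these cells in the Isl1 values was not tested.

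Vsx1, a homeodomain factor of cone bipolar cells, had probe sets that disagreed. Probe set 1450487_at read 7.81, 7.02, 7.53 and 7.55 in Control and 7.88, 7.64, 7.59 and 8.14 in Z/Edn2, higher in Z/Edn2 in all 4 same-numbered pairs but with overlapping groups. Its difference of 0.34 ± 0.178 (SE) did not pass (limma adjusted p = 1.00). The other probe set, 1422104_at, was at −0.077, and its lowest array was Z/Edn2 3 at 5.81, against 6.45 to 7.21 in the rest. With Control 1, Z/Edn2 1 and Z/Edn2 3 left out together, the latter turned to 0.26, so both probe sets were then above 0.

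None of the remaining factors passed either. Irx5 and Irx6, Iroquois homeodomain factors of certain OFF cone bipolar types, were at −0.16 and −0.10, and Fezf2, a zinc finger factor that marks an OFF type, at −0.10. In all 3 the Z/Edn2 array was below the Control array of the same number in each of the 4 pairs. For Irx5 the number 2 pair differed by −0.54 and the others by −0.061 to −0.0058. For Fezf2 the number 2 pair differed by −0.33 and the others by −0.041 to −0.0039. With a single array left out, the highest difference was 0.043 for Irx5 and 0.017 for Fezf2, so their direction was not settled. Prdm8, a chromatin factor that rod bipolar and some OFF cells need in the mouse, was at −0.075, and Bhlhe23, a basic helix-loop-helix factor of rod bipolar maturation, at 0.080. Sebox, a homeobox factor, was at −0.060 and −0.031, and St18, a zinc finger factor, at −0.21 and −0.17. In this group 6 of 13 probe sets were lower in all 4 same-numbered pairs, and 14 of all 50, where 6.9% of all probe sets were. The number higher in all 4 pairs was 5 of 50, where 11.0% of all probe sets were.

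The ON cascade was covered by 21 probe sets of 10 genes, with 10 differences above 0, 11 below 0 and a median of −0.035. The 2 with the smallest p were Rgs7 and Rgs11, the regulators that speed GTP hydrolysis by the G protein Go, and they pointed in opposite directions. Rgs7 read 8.33, 8.65, 8.62 and 8.36 in Control and 8.12, 8.29, 8.40 and 8.20 in Z/Edn2. Z/Edn2 1, 2 and 4 were below every Control array, while Z/Edn2 3 lay between them, and the difference was −0.24 ± 0.106 (SE, limma adjusted p = 1.00). Rgs11 read 7.71, 8.50, 7.84 and 7.59 in Control and 8.11, 8.47, 8.37 and 8.24 in Z/Edn2. Every Z/Edn2 array was above Control 1, 3 and 4 and below Control 2, and the difference was 0.39 ± 0.186 (SE, limma adjusted p = 1.00).

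The receptor-side proteins and the channel had low to mid-range signals. Trpm1, the cation channel that the cascade closes, had 4 probe sets with array values between 4.45 and 6.52 and differences of −0.14, 0.011, 0.082 and 0.18, so its probe sets disagreed in direction. Nyx, the leucine-rich repeat protein nyctalopin that the channel needs, read 6.04 to 6.36 in Control and 6.06 to 6.63 in Z/Edn2, a difference of 0.11. Gpr179, an orphan receptor that anchors the RGS proteins, was at 0.15. These 6 probe sets had means below which 22.9% to 50.7% of all probe sets lay, and since probe sets differ in how well they bind, this is no ranking of the genes.

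The G protein genes gave no single direction. Gnao1, the alpha subunit of Go and also abundant in other neurons, was at −0.17 in its bright probe set 1421152_a_at, with values of 10.32 to 10.76, and at 0.19 and 0.081 in the dimmer ones. Gnb5, the beta subunit that partners the RGS proteins, was at −0.040 and 0.026, the second from an x_at probe set, a kind that can bind related transcripts. Gng13, the gamma subunit, was at −0.27 in 1419414_at and 0.086 in 1447282_at. Pcp2, a modulator of Go in ON bipolar cells, was at −0.13, −0.18 and −0.43, and Prkca, protein kinase C alpha and the usual rod bipolar marker, at −0.035, −0.074 and −0.31. With the block, 4 of the 21 ON cascade probe sets were lower and 1 higher at an unadjusted p under 0.05: Gng13 1419414_at, Rgs7, Pcp2 1424944_at and Prkca 1450945_at were lower and Rgs11 was higher. Over all probe sets 2.91% were lower and 5.63% higher by that rule, and the smallest blocked adjusted p among these 5 was 0.208 (Pcp2).

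**Figure D2:**
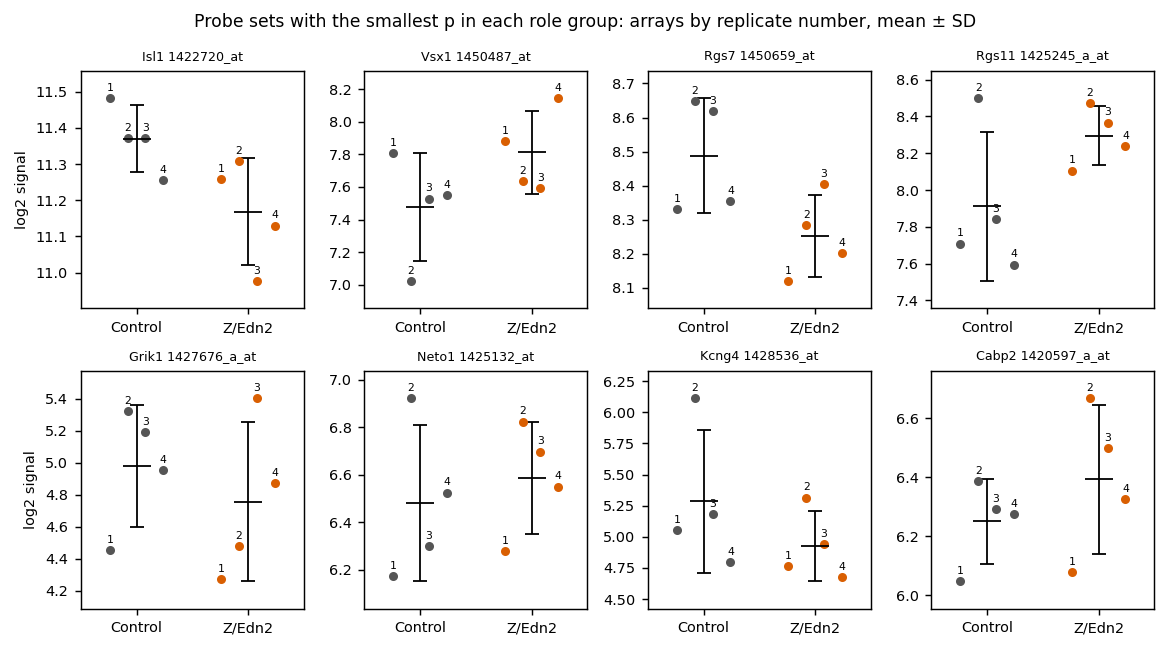
Log2 signal (y axis) of the 2 probe sets with the smallest p in each role group, by group (x axis), with a point for each array, its replicate number beside it, and bars for the mean ± SD of 4 arrays. The Control and Z/Edn2 values overlap in all 8 panels. Rgs7 has its lower values in Z/Edn2 and Rgs11 its higher ones.

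OFF type genes were represented by Grik1, a kainate receptor subunit of OFF bipolar cells, and Neto1, an auxiliary subunit of kainate receptors, with 5 probe sets and a median difference of 0.11. Grik1 1427676_a_at read 4.46, 5.33, 5.19 and 4.95 in Control and 4.27, 4.48, 5.40 and 4.87 in Z/Edn2, a difference of −0.22 ± 0.259 (SE, limma adjusted p = 1.00). The other Grik1 probe set was at 0.23, so the direction was not settled. Neto1 1425132_at read 6.17, 6.92, 6.30 and 6.52 in Control and 6.28, 6.82, 6.70 and 6.55 in Z/Edn2, a difference of 0.11 ± 0.174 (SE, limma adjusted p = 1.00). Its other probe sets were at 0.11 and −0.047. The groups overlapped in each of the 5 probe sets. Taken with the OFF-linked factors Vsx1, Irx5, Irx6 and Fezf2, 10 probe sets had 4 differences above 0, 6 below 0 and a median of −0.062.

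The calcium-binding, synaptic and other genes had 11 probe sets, 6 above 0 and 5 below 0, with a median of 0.031. Kcng4, a modifying potassium channel subunit that marks an ON cone bipolar type and some ganglion cells, read 5.05, 6.11, 5.18 and 4.80 in Control and 4.77, 5.32, 4.94 and 4.68 in Z/Edn2. It was lower in Z/Edn2 in all 4 same-numbered pairs, but the groups overlapped and the difference of −0.36 ± 0.263 (SE) did not pass (limma adjusted p = 1.00). Cabp2, a calcium-binding protein of the calmodulin family, read 6.05, 6.39, 6.29 and 6.28 in Control and 6.08, 6.67, 6.50 and 6.33 in Z/Edn2. It was higher in all 4 pairs, by 0.14 ± 0.133 on average (SE, limma adjusted p = 1.00). Cabp5, a relative found in rod bipolar and some cone bipolar cells, was at −0.059 and −0.093, and Scgn, the calcium-binding protein secretagogin of cone bipolar cells, at −0.12. Slc17a7, the vesicular glutamate transporter of photoreceptors and bipolar cells, was at 0.14, Rgs16, a small regulator of G protein signalling, at 0.031, 0.048 and 0.085, and Lrtm1, a leucine-rich repeat membrane protein, at −0.29 and 0.055.

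Of the 15 genes with more than 1 probe set, 8 had probe sets on both sides of 0: Gnao1, Gnb5, Gng13, Grik1, Lrtm1, Neto1, Trpm1 and Vsx1. For Gnb5 the upper one fell to −0.002 once arrays were centred on their medians, so both were then below 0. The widest gap between probe sets of a gene was 0.45, for Grik1. Cabp5, Isl1, Pcp2, Prkca, Sebox and St18 were below 0 in each of their probe sets, and Rgs16 above 0 in each.

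Signals of the bipolar genes varied between replicate numbers, while no difference between genotypes passed the threshold. Replicate numbers 1 to 4 occur in both groups, and for 48 of the 50 probe sets the number took a larger share of the sum of squares than the genotype did, as it did for 87.4% of all probe sets. The number has 3 degrees of freedom and the genotype 1, which alone favours a larger share for the number. The median share was 80.6% for the number and 7.68% for the genotype, beside 58.8% and 6.94% over all probe sets. For 25 of the 50, from 16 genes, the number 2 array was the highest of its group in both Control and Z/Edn2, where 7.82% of all probe sets behaved so. The number 1, 3 and 4 arrays were the highest in both groups for 7, 3 and 2 probe sets, beside 18.8%, 11.4% and 5.05% of all probe sets. The number 1 array was the lowest in both groups for 16 probe sets, number 2 for 5, number 3 for 1 and number 4 for 10, beside 21.8%, 8.03%, 4.21% and 6.78% of all.

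By role, number 2 was highest in both groups for 4 of 13 transcription factor, 11 of 21 ON cascade, 3 of 5 OFF type and 7 of 11 calcium-binding, synaptic and other probe sets. The examples were chosen after their values were seen. Lrtm1 1443866_at read 6.89 in Control 2 and 6.50 in Z/Edn2 2, against 5.34 to 5.38 in the other Control and 5.02 to 5.15 in the other Z/Edn2 arrays. Pcp2 1424944_at read 7.13 and 6.44 in the number 2 arrays, against 5.47 to 5.64 and 5.14 to 5.29. Gng13 1419414_at read 7.22, 8.60, 7.78 and 7.48 in Control and 6.93, 8.27, 7.51 and 7.31 in Z/Edn2. Number 2 was high in each, and in these 3 probe sets every Z/Edn2 array was below the Control array of the same number. Cabp5 1451826_at followed the same order of numbers in both groups, at 9.27, 10.51, 9.88 and 9.46 in Control and 9.17, 10.46, 9.71 and 9.39 in Z/Edn2, and the number took 98.8% of its sum of squares.

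Other orders of the numbers occurred too. Both OFF type genes were lowest in number 1 in both groups, in 5 of 5 probe sets: Grik1 1439987_at read 5.12 in Control 1 and 5.94 in Z/Edn2 1, against 6.61 to 7.68 in the other 6 arrays. Slc17a7 was instead highest in number 1, at 10.19 and 10.70, against 8.49 to 9.44 in the others. Rgs16 was highest in number 1 in 2 of its 3 probe sets. Irx5, Irx6 and Fezf2 were lowest in number 2 in both groups, where 25 of the 50 members' probe sets were highest. Averaged over their probe sets, the transcription factors stayed within −0.14 and 0.078 of the Control mean in all arrays. The ON cascade average was at 0.28 and 0.21 in the number 2 arrays and at −0.20 to −0.010 in the others. Single transcription factor probe sets did vary, in different orders: of 13, number 2 was highest in both groups for 4 and lowest for 3. The number took a median of 76.4% of their sum of squares, against 63.0% for the ON cascade.

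Markers of some other cells moved with the number too. The 6 probe sets of the 6 measured rod genes averaged 0.51 above the Control mean in Control 2 and 0.22 in Z/Edn2 2, and −0.31 to −0.031 elsewhere. Gnat1, the rod transducin alpha subunit, carried much of this, at 12.20 and 11.53 against a Control mean of 10.58. The median over the 6 was 0.35 in Control 2 and 0.083 in Z/Edn2 2, and Nrl and Pde6b lay below their Control means in Z/Edn2 2. The 11 cone probe sets averaged 0.33 in Control 2 and 0.36 in Z/Edn2 2, and −0.25 to 0.12 elsewhere. Number 2 was highest in both groups for 7 of 11 cone, 6 of 11 pigment epithelium and 4 of 6 rod probe sets. It was so for 1 of 16 amacrine, 1 of 11 horizontal and 1 of 13 ganglion probe sets, and for 7.82% of all probe sets. Progenitor markers were lowest in the number 2 arrays, at −0.33 and −0.16, against 0.022 to 0.32 in the others. Their part in the bipolar values was not tested, nor was that of the actin 3′ minus 5′ difference, which was smallest in the number 1 arrays.

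**Figure D3:**
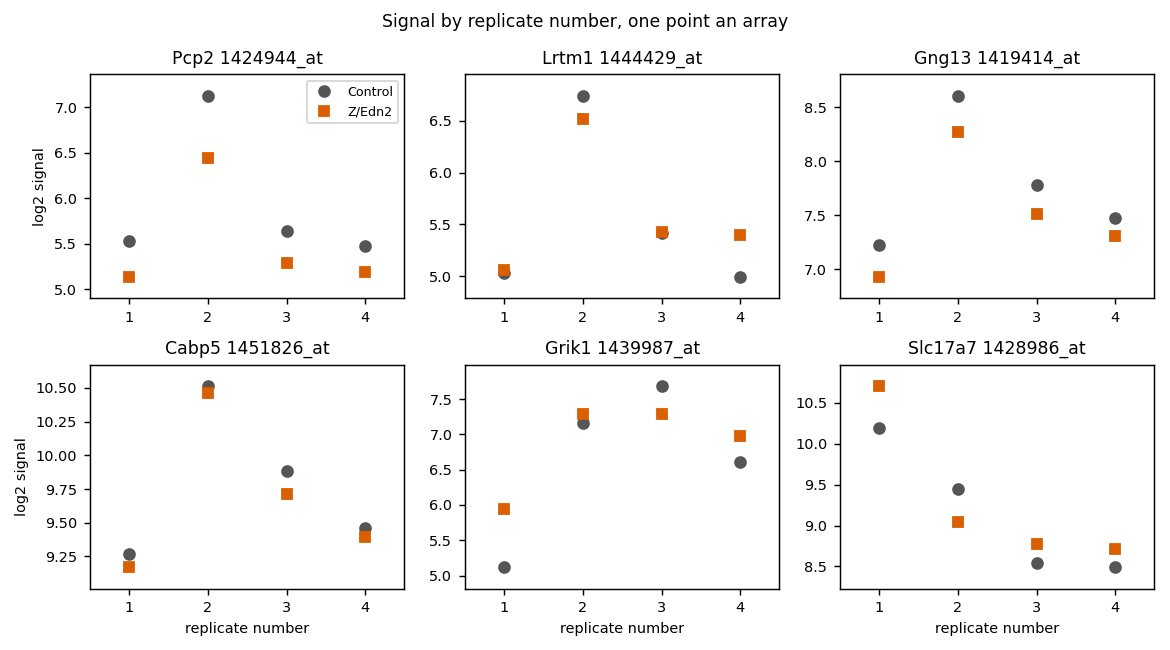
Log2 signal (y axis) of 6 bipolar probe sets against replicate number (x axis), a circle for each Control and a square for each Z/Edn2 array. The 6 genes were chosen after their values were seen, and for each the probe set that varied most over the numbers is drawn. Pcp2, Lrtm1, Gng13 and Cabp5 peak at number 2 in both groups, Grik1 is lowest and Slc17a7 highest at number 1, and circle and square of the same number lie close together relative to the spread over numbers.

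**Figure D4:**
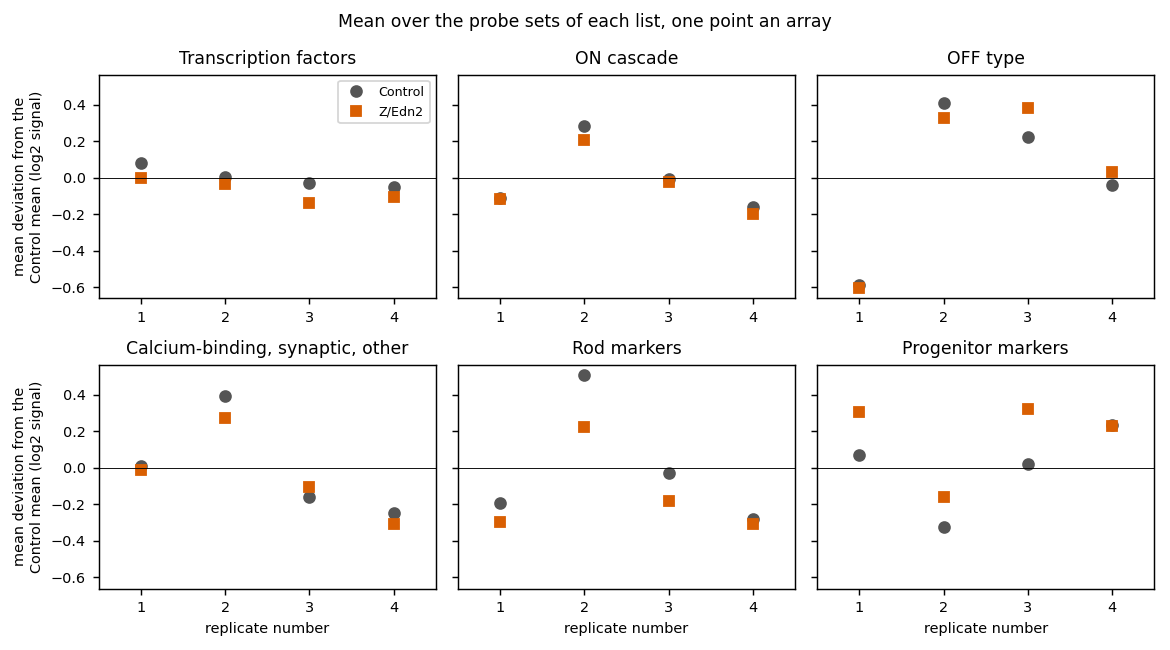
Mean deviation from the Control mean (y axis, log2 signal) over the probe sets of each list, against replicate number (x axis), a point for each array. The ON cascade, the calcium-binding, synaptic and other genes and the rod markers are highest in both number 2 arrays, the OFF type genes lowest in both number 1 arrays at −0.59 and −0.61, and the progenitor markers lowest in both number 2 arrays.

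Promoters are shown for the 7 genes whose window holds letters that the photoreceptor and bipolar factors OTX2 and CRX bind. The sequences come from RefSeq (GRCm38.p6), from 250 bases before to 50 after the start of the gene, in which 23 of the 30 genes had an entry, with 29 windows in all. TAATCC was searched on both strands, reading GGATTA on the other strand, and so was TAATTA, a homeodomain core that is its own reverse complement. No window held both. TAATCC was present in 7 of the 29 windows, from 7 of the 23 genes (Cabp2, Cabp5, Gnb5, Isl1, Kcng4, Lrtm1 and Trpm1), and in 7.06% of all 32851 windows. TAATTA was present in 1 window, of Pcp2, and in 5.29% of all. Capitals mark the TAATCC or GGATTA letters, and each line runs 5′ to 3′ on the strand of the gene. The windows lie, in the same build, for Cabp2 at chr19:4083269-4083568 (plus strand), Cabp5 at chr7:13397905-13398204 (plus strand), Gnb5 at chr9:75306038-75306337 (plus strand), Isl1 at chr13:116309639-116309938 (minus strand), Kcng4 at chr8:119635631-119635930 (minus strand), Lrtm1 at chr14:29017958-29018257 (plus strand) and Trpm1 at chr7:64153585-64153884 (plus strand).
Cabp2: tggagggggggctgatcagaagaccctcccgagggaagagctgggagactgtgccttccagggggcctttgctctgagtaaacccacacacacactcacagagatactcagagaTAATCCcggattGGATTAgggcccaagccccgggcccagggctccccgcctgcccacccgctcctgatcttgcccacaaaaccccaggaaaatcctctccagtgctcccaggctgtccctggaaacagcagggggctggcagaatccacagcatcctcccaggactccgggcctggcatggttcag
Cabp5: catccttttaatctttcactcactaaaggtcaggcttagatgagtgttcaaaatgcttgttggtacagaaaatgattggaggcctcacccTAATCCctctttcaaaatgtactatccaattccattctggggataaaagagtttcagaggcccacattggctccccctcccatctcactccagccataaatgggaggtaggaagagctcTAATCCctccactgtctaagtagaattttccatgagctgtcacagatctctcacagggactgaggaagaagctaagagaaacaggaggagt
Gnb5: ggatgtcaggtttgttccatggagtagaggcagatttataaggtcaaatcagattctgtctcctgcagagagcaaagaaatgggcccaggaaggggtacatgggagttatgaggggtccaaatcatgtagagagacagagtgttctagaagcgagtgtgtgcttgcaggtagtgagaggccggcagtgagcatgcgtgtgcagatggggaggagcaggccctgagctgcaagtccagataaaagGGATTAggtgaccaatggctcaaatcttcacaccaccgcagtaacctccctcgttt
Isl1: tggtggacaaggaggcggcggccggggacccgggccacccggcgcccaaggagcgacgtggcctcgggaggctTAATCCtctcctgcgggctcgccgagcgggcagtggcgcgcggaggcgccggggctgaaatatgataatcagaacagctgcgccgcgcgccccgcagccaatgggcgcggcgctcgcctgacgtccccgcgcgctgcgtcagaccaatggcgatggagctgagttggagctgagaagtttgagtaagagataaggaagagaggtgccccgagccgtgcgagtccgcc
Kcng4: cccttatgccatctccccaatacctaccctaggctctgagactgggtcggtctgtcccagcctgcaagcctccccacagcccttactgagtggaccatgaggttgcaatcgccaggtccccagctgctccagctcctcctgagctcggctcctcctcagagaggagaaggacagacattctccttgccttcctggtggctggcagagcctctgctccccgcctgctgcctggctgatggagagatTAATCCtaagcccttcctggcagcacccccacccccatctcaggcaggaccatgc
Lrtm1: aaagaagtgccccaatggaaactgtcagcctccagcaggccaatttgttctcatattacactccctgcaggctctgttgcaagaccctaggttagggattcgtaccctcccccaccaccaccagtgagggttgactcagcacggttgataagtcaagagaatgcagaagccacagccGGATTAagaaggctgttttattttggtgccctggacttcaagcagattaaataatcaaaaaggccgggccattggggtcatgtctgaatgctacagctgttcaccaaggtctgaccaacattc
Trpm1: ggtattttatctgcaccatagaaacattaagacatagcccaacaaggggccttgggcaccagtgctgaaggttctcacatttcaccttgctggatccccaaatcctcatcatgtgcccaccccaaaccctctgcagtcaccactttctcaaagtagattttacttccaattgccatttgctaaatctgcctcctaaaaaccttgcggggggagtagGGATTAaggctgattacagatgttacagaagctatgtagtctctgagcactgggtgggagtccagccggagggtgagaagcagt
Cabp2 and Cabp5 hold the letters at 2 places each and the other 5 genes at 1 place each. A match describes the window and is no evidence of binding in these retinas.

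A list of other bipolar genes also gave no call. Of 21 genes, 17 had 31 probe sets, of which 0 passed by limma in either direction and 0 had an unadjusted p under 0.05. Their differences were above 0 for 5 and below 0 for 26, with a median of −0.062. Over all probe sets 0.114% passed, 4.03% had an unadjusted p under 0.05 and 43.7% were below 0. The 4 probe sets with the smallest p belonged to Pcp4, a calmodulin-binding protein, at −0.32 ± 0.170 (SE), Prkar2b, a regulatory subunit of protein kinase A, at −0.17 and −0.12, and Vstm2b, an immunoglobulin-domain membrane protein, at −0.18. Pcp4 read 10.97, 11.37, 11.01 and 10.77 in Control and 10.85, 11.06, 10.54 and 10.39 in Z/Edn2, with number 2 highest in each group. Of the 31 probe sets, number 2 was highest in both groups for 10 and number 1 for 9. Over all probe sets the shares were 7.82% and 18.8%. Car8, a carbonic anhydrase relative of rod bipolar cells, was at −0.27, −0.093 and −0.061.

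Among markers of other cells, by limma 1 of 6 endothelial probe sets was called lower (Tek, the angiopoietin receptor, at −1.54, adjusted p = 0.00418) and 0 probe sets passed in the rod, cone, amacrine, horizontal, ganglion, Mueller, progenitor, pigment epithelium or lens lists. With the replicate block 1 Mueller probe set passed as well, the brightest of the 3 for Sox9, a factor of Mueller glia and progenitors, higher by 0.56 and in all 4 pairs (limma adjusted p = 0.046). At an unadjusted p under 0.05, which 4.03% of all probe sets had, 7 of 13 ganglion, 6 of 19 Mueller and 2 of 16 amacrine probe sets differed. So did 2 of 12 progenitor and 2 of 6 endothelial probe sets, beside 0 of the 50 bipolar ones. Medians were −0.12 for rods, 0.042 for cones, −0.024 for amacrine cells, −0.021 for horizontal cells, −0.13 for Mueller glia, 0.15 for progenitors, −0.11 for pigment epithelium, 0.14 for lens and −0.23 for endothelium.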

How the data were processed

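Gene expression was measured with Affymetrix arrays in 4 Control and 4 Z/Edn2 pools of P8 retina, from total RNA labelled with the 3′ IVT Express kit, per the labels. Values are the log2 signals that the authors deposited, one for each probe set and array, made with RMA per the submitters' processing notes; the version and genome build are not given in the sources used here. The authors' deposited log2 fold changes equalled Z/Edn2 minus Control means within 4.9e-08, which fixed the direction.

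Of 45101 probe sets, 34945 had 1 gene symbol. The groups were tested in limma 3.58.1 under R 4.3.3, two-sided, by eBayes after lmFit, with Benjamini-Hochberg adjustment over all of them and a threshold of 0.05, with group as the only term. The script was tested on simulated data. The number of arrays limits the precision, and p-values measure the spread between pools. No set test was run.

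Replicate numbers are shared between the groups, and whether a shared number marks a pair or a batch is not given in the labels. After removal of group means, same-numbered arrays correlated at 0.80, 0.43, 0.18 and 0.31 across probe sets, each above 0.1, so a fit with the number as a block was run too. Control 3 correlated at 0.41 with Z/Edn2 4, above its own number.

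The 30 members, the other bipolar genes and the marker lists (rod, cone, amacrine, horizontal, ganglion, Mueller, progenitor, pigment epithelium, lens, endothelium) were chosen with earlier results of these data known. All members are named. Array values are given for the 2 probe sets with the smallest p in each role group, for any with an unadjusted p under 0.05 or a blocked adjusted p under 0.05 (there were none), and for examples chosen after their values were seen, as stated. Listed genes without a probe set of 1 symbol were not analysed here.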

Additional observations from a re-analysis of the deposited data

Results flagged for a closer look

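In a group of 4 arrays, a single array was tested for a gap to its nearest neighbour that, as a share of the group's range, passed Dixon's 95% critical value, in 100 groups (50 probe sets, 2 groups). Chance flags about 1 in 20 groups, and 6 were found. Lrtm1 1443866_at was set apart by Control 2, at 6.89 (others 5.34 to 5.38), and by Z/Edn2 2, at 6.50 (others 5.02 to 5.15). Pcp2 1424944_at was set apart by the same arrays, at 7.13 (others 5.47 to 5.64) and 6.44 (others 5.14 to 5.29). Z/Edn2 1 stood apart for Slc17a7, at 10.70 (others 8.71 to 9.05), and for Gnao1 1421152_a_at, at 10.74 (others 10.32 to 10.37).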

How the results depend on the processing

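With 4 arrays a group, the differences of most bipolar probe sets are too small for a settled direction. By limma no bipolar probe set or gene passed in any of the 21 alternatives, and the smallest adjusted p was 0.208 (Pcp2 1424944_at, with the replicate block). All 50 probe sets were tested each time, save 31 with dim probe sets left out and 28 with 1 value per gene. The block raised the calls over all probe sets from 31 to 76 higher and from 9 to 18 lower, and took the bipolar probe sets with an unadjusted p under 0.05 from 0 to 9. It changed no call among them. Array weights gave 49 higher calls and 2 bipolar probe sets with an unadjusted p under 0.05, and leaving out dim probe sets gave 19 higher and 2 lower calls. An unadjusted p under 0.05 was found for 1 of 28 with the brightest probe set per gene and for 2 of 28 genes with the mean per gene. Of the 50 probe sets, 1 had such a p with arrays centred on their medians, and 3 with Control 1, Z/Edn2 1 and Z/Edn2 3 all left out. Shares over all probe sets were not computed for these settings. Leaving out a single array, or both arrays of a number, gave 3 to 34 higher calls (3 without number 4, 9 to 19 without any array but Z/Edn2 1, and 34 without that one), 0 to 7 lower calls (0 without number 2 or number 4) and 0 to 4 bipolar probe sets with an unadjusted p under 0.05. The role medians stayed within −0.14 and −0.077 for transcription factors in all 21 alternatives. Those of the ON cascade ran from −0.15 to 0.059, of the OFF type genes from −0.13 to 0.25 and of the calcium-binding, synaptic and other genes from −0.19 to 0.089. The cause of these changes was not tested.

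Of 987 single values under the alternatives, 905 kept their direction, and 20 probe sets kept it throughout. Array weights turned Neto1 1456283_at (0.036), Rgs16 1451452_a_at (−0.019), Trpm1 1437445_at (−0.029) and Vsx1 1422104_at (0.06). The mean per gene turned Gnao1 (0.034) and Trpm1 (0.034) relative to their bright probe sets. Centring turned Gnb5 1447630_x_at (−0.002) and Trpm1 1437445_at (−0.017). Omitting those 3 arrays turned the sign of Bhlhe23 1421561_at (−0.009), Gnao1 1460383_at (0 after rounding), Gng13 1447282_at (−0.012), Grik1 1439987_at (−0.021), Neto1 1456283_at (0.163), Prdm8 1455925_at (0.037), Rgs16 1426037_a_at (−0.011), Rgs16 1451452_a_at (−0.087), Trpm1 1437445_at (−0.054) and Vsx1 1422104_at (0.257). In 27 probe sets the sign turned when 1 array or both arrays of a number were left out, and none of these values passed. Lowest and highest values were −0.053 and 0.216 for Bhlhe23 1421561_at, −0.275 and 0.15 for Cabp5 1421780_a_at, −0.352 and 0.15 for Cabp5 1451826_at, −0.16 and 0.017 for Fezf2 1418790_at and −0.003 and 0.184 for Gnao1 1460383_at. These bounds were −0.122 and 0.073 for Gnb5 1422208_a_at, −0.06 and 0.129 for Gnb5 1447630_x_at, −0.52 and 0.011 for Gng13 1419414_at, −0.279 and 0.574 for Grik1 1439987_at and −0.264 and 0.043 for Irx5 1421072_at. They were −0.647 and 0.089 for Lrtm1 1443866_at, −0.25 and 0.452 for Lrtm1 1444429_at, −0.037 and 0.347 for Neto1 1441815_at, −0.265 and 0.205 for Neto1 1456283_at and −0.512 and 0.024 for Pcp2 1419084_a_at. The corresponding bounds were −0.413 and 0.068 for Pcp2 1419085_at, −0.131 and 0.008 for Prdm8 1455925_at, −0.204 and 0.161 for Prkca 1427562_a_at, −0.165 and 0.045 for Prkca 1437393_at and −0.059 and 0.189 for Rgs16 1426037_a_at. The same bounds came to −0.251 and 0.314 for Rgs16 1451452_a_at, −0.009 and 0.141 for Rgs16 1455265_a_at, −0.242 and 0.176 for Sebox 1450823_at, −0.162 and 0.121 for Sebox 1457946_at and −0.319 and 0.484 for Slc17a7 1428986_at. The last were −0.089 and 0.068 for Trpm1 1437445_at and −0.247 and 0.222 for Vsx1 1422104_at.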

Other observations

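Rgs7 and Rgs11, which both pair with Gnb5, were set against each other within each array after their values were seen. The Rgs11 minus Rgs7 difference in log2 signal was −0.62, −0.15, −0.78 and −0.76 in Control 1 to 4 and −0.015, 0.19, −0.038 and 0.039 in Z/Edn2 1 to 4. The groups did not overlap, with means of −0.58 ± 0.295 and 0.044 ± 0.102 (SD, n = 4 each), a change of 0.62. Leaving out any single array gave 0.55 to 0.77. Neither probe set passed on its own, and the pair was picked for moving apart. Of 1195 pairs of member probe sets from different genes, 20 (1.67%) had differences that did not overlap between the groups. The share over pairs of all probe sets was not computed. Among all single probe sets, 3.13% did not overlap, so such a pair is no result about these genes. Levels of the 2 genes cannot be compared, since their probes differ, and the value is a description of these 8 arrays only.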
